A study of Mus musculus with 3 samples.

Results

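Integrins are cell-surface receptors made of an alpha and a beta subunit, and the alpha subunit largely sets which matrix protein is bound. The alpha2 subunit pairs with beta1 to bind fibrillar collagen, alpha3 with beta1 and alpha6 with beta1 or beta4 bind laminin, and alpha5 with beta1 binds fibronectin. The alpha-v subunit pairs with several beta subunits, beta6 among them, to bind proteins that carry the RGD (arginine, glycine, aspartate) motif. In mammary epithelium these receptors anchor basal cells to the basement membrane, and alpha6 with beta4 forms hemidesmosomes, whereas collagen- and fibronectin-binding integrins meet the matrix of the stroma.

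The genes described here are 10 of the 20605 genes measured, taken by name as a list of integrins and matrix receptors. The list was chosen with earlier results of these data known, so its counts beside those of all genes are descriptions. Ordered by role they are the collagen-binding subunit Itga2, the laminin-binding subunits Itga3, Itga6 and Itgb4, the fibronectin- and RGD-binding subunits Itga5, Itgav and Itgb6, the shared subunit Itgb1, the integrin activator Fermt1 (kindlin-1) and the proteoglycan co-receptor Sdc1 (syndecan-1). All 10 passed the filter on low counts, as did 13184 of all genes.

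The cells were primary tumour cells, at passage 0, of 4 FVB mice of the C3(1)-Tag line, aged 25 to 30 weeks and bearing tumours of 20 mm, in which a viral large T antigen under the C3(1) promoter gives mammary carcinoma. Cells of each mouse were grown as organoids in collagen I, the fibrous collagen of stroma, or as clusters in Matrigel, an extract of basement membrane rich in laminin, both in medium with 2.5 nM FGF2. They were collected on day 0, which was 12 h after plating, and on days 3 and 5. Each day was 1 pooled 10x Genomics library and 1 batch that held both matrices, so within a matrix a day cannot be told apart from its batch. Collagen gels were digested with 2 mg/ml collagenase and Matrigel was loosened with 10 mM EDTA on ice, so matrix and release method cannot be told apart. The 4T1 line, an established mouse mammary carcinoma line grown on plastic, was added to each pool.

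The libraries of days 0, 3 and 5 held 60391888, 140869562 and 68725854 unique molecular identifiers (UMIs) in 7620 cells. After leaving out 227 cells resembling macrophages, 81 resembling fibroblasts and 29 resembling T and NK cells, the other 6970 cells with a mouse label were added up within each mouse, matrix and day, which gave 21 sums of 38 to 1148 cells. The matrices filled the tumour clusters unevenly, and Itga2 levels differed between clusters. The cluster led by genes such as Krt6a and Krt16 had 640 collagen and 18 Matrigel cells over all days and 117 CPM of Itga2, and that led by genes such as Klk8 and Il11 had 260 collagen and 7 Matrigel cells and 184 CPM. A cluster of cells with few UMIs, led by genes such as Cyr61 and Ctgf, had 6 collagen and 207 Matrigel cells and 13.1 CPM. Not all clusters followed this order. That led by genes such as Igfbp5 and Trf had 292 collagen and 112 Matrigel cells and 13.8 CPM of Itga2. That led by genes such as Dcpp1 and Bpifa2 had 220 collagen and 561 Matrigel cells and 81.1 CPM. Another with Krt6a and Krt16 among its leading genes had 63 collagen and 347 Matrigel cells and 72.0 CPM. All clusters of few UMIs together were also counted in the sums of mice 1 to 4 on day 0. They gave 39 of 341, 53 of 195, 41 of 174 and 130 of 229 cells in collagen. In Matrigel they gave 63 of 347, 80 of 331, 51 of 394 and 269 of 629 cells. On day 5 they gave 1 and 0 cells in the Matrigel sums of mice 2 and 3, and 0 in each collagen sum. The cells kept on days 0, 3 and 5 numbered 939, 2477 and 1064 in collagen and 1701, 687 and 102 in Matrigel. Cluster counts over all days thus mix matrix with day. The values below are therefore sums over a mixture of tumour cells, and the part of its makeup in the differences was not tested. The summed level of 6 epithelial markers (Epcam, Cdh1, Krt8, Krt18, Krt14 and Krt5) was 3708 to 7600 counts scaled to library size (CPM) over the sums, and 22 cells shared a barcode with a cell of another library. On day 5 mouse 4 is missing and mouse 1 has only 13 Matrigel cells, under the minimum of 20, so day 5 sets 3 collagen sums against 2 Matrigel sums, of 51 and 38 cells. Levels are CPM of the sums, with library sizes scaled by TMM. They come from tags at the 3' end and are compared between samples, not between genes. A gene was called when its adjusted p-value (edgeR quasi-likelihood test, Benjamini-Hochberg over all 13184 genes) was under 0.05, and log2 fold changes are positive where collagen, or the later day, was higher.

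The 250 bases before the annotated start of 1 alpha subunit of each ligand class, and of Itgav, are shown so that genes called and not called between the matrices can be set side by side (RefSeq, GRCm38.p6, 5′ to 3′ on the gene's own strand). They lie at chr13:114932101-114932350 (minus strand) for Itga2, chr11:95076715-95076964 (minus) for Itga3, chr15:103366792-103367041 (minus) for Itga5 and chr2:83724147-83724396 (plus) for Itgav.
Itga2: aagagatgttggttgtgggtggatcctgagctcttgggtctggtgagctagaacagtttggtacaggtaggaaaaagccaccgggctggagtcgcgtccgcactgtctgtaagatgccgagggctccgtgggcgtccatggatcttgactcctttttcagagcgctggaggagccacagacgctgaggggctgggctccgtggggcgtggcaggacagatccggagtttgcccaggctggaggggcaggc
Itga3: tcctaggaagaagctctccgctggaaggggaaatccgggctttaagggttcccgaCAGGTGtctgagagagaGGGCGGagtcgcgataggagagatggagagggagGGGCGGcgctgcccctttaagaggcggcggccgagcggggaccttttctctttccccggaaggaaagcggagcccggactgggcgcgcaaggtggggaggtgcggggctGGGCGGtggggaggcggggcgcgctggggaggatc
Itga5: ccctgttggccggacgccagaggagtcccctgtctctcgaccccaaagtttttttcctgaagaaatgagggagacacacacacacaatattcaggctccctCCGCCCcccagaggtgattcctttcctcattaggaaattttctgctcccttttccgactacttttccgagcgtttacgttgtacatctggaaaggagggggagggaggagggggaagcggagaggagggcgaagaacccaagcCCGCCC
Itgav: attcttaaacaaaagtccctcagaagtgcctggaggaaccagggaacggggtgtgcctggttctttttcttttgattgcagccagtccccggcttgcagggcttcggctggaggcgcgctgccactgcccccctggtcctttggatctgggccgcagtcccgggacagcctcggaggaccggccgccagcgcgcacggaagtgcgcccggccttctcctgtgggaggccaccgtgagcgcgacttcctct
Capitals mark matches on either strand to 4 motifs: the AP-1 site TGANTCA, the TEAD site GGAATG, the GC box GGGCGG and the E-box CACCTG. The windows of Itga2 and Itgav held none of them. That of Itga5 held 2 GC boxes, and that of Itga3 held 3 GC boxes and 1 E-box. Itga3 had another annotated start, whose window (chr11:95069199-95069448, minus, not shown) held 1 GC box and 0 E-boxes. Over the same stretch of 32851 promoters, 6.749% held the AP-1 site, 12.642% the TEAD site, 32.742% the GC box and 17.220% the E-box. Of the 10 genes, 8 had a promoter in that table and Itga6 and Itgb4 had none. A match is a run of letters and was not read as a bound site.

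**Figure D1:**
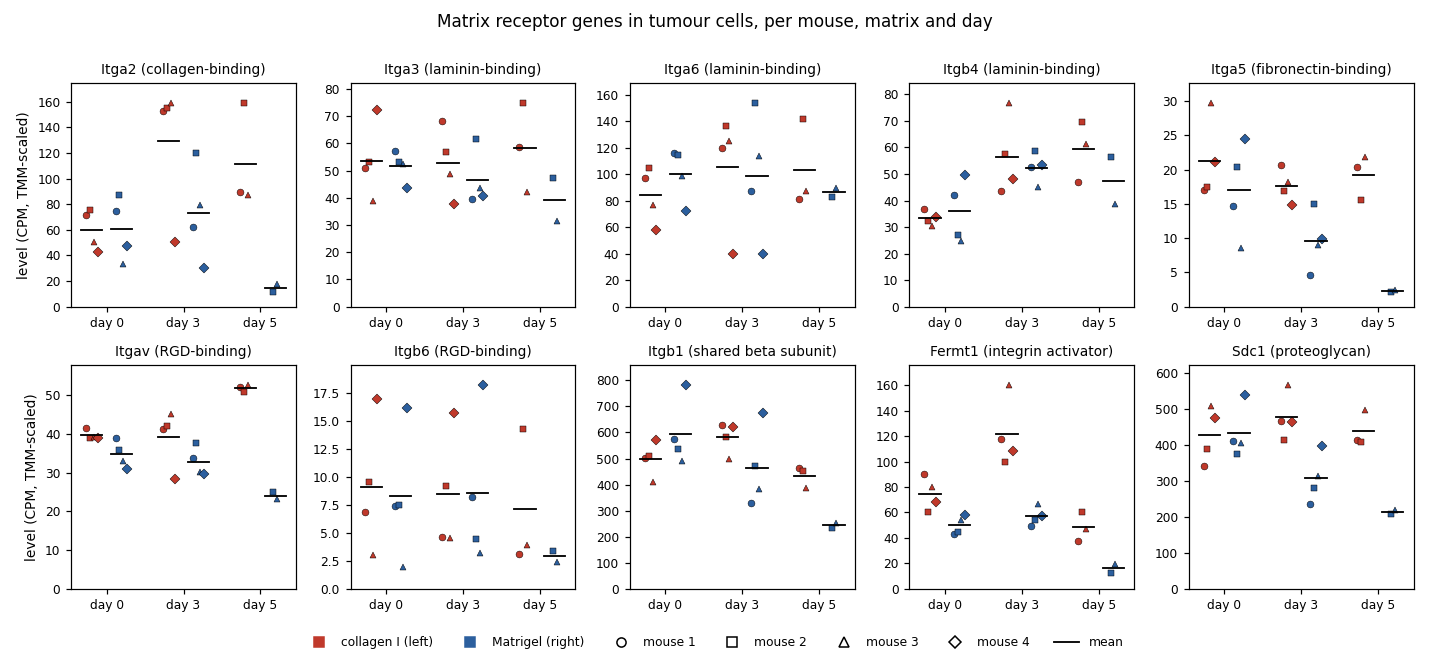
Level (CPM, vertical axis from 0) of each of the 10 genes in every sum, by day, with collagen to the left of Matrigel; symbols are mice and bars are means. On day 5 every collagen sum lies above both Matrigel sums for Itga2, Itga5, Itgav, Itgb1, Fermt1 and Sdc1, and the sums of both matrices overlap for Itga3, Itga6, Itgb4 and Itgb6.

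The collagen-binding subunit Itga2 and the fibronectin- and RGD-binding subunits Itga5 and Itgav were higher in collagen than in Matrigel on day 5, and none of the laminin-binding subunits was called on any day. On day 5, 5 of the 10 genes were called higher in collagen and 0 lower, where 0.326% of all tested genes were called higher and 0.129% lower. They were Itga2, Itga5, Itgav, Fermt1 and Sdc1. On day 3, 1 of the 10 (Fermt1) was called higher, against 0.167% of all genes, and on day 0 edgeR called 0 of the 10, against 4.15% of all genes called higher and 2.88% lower. At an unadjusted p under 0.05, and in DESeq2, day 0 gave 1 (Fermt1), and limma gave 0. The median log2 fold change of the 10 genes was 0.02, 0.30 and 1.07 on days 0, 3 and 5, beside 0.01, -0.01 and 0.00 over all tested genes. Under a mouse block the calls in the same direction were 1, 2 and 6 on days 0, 3 and 5, where 12.5%, 2.71% and 3.61% of all genes were. The blocked fit added Fermt1 on day 0, Sdc1 on day 3 and Itgb1 on day 5. On day 5 the sums of the matrices did not overlap for 6 of the 10, all higher in collagen, where 18.6% of all genes were higher without overlap.

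The calls of day 5 rest on few sums. Without mouse 1, mouse 2 or mouse 3, 0 of the 10 were called, and all 5 fold changes kept their sign; without mouse 4, which has no cells on day 5, 6 were called. In mice 2 and 3 alone, which have cells in both matrices on that day, 3 of the 10 were called.

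**Figure D2:**
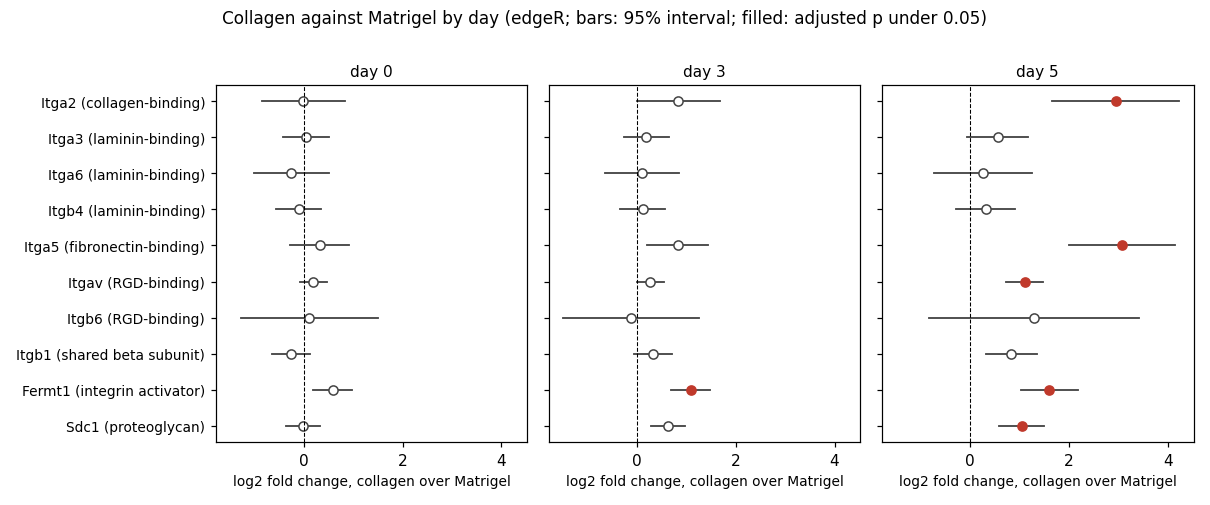
Log2 fold change of collagen over Matrigel (horizontal axis) for each of the 10 genes on days 0, 3 and 5, with 95% intervals from the edgeR fit; filled points passed an adjusted p of 0.05. The filled points are Fermt1 on day 3 and Itga2, Itga5, Itgav, Fermt1 and Sdc1 on day 5, and the 3 laminin-binding genes lie near 0 on days 0 and 3.

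Itga2 (ENSMUSG00000015533, GRCm38 chromosome 13, 114833081 to 114932100, minus strand) encodes the alpha2 subunit of the main epithelial collagen receptor. On day 0 its level in mice 1 to 4 was 71.4, 75.3, 50.4 and 42.8 CPM in collagen, against 75.0, 87.4, 32.9 and 47.3 CPM in Matrigel. On day 3 it was 153, 155, 159 and 50.5 CPM in collagen, against 61.9, 120, 79.2 and 30.2 CPM in Matrigel. On day 5 it was 89.4, 159 and 87.1 CPM in mice 1 to 3 in collagen, against 11.7 and 17.8 CPM in mice 2 and 3 in Matrigel. The matrices overlapped on days 0 and 3, although all 4 mice had the higher value in collagen on day 3, and on day 5 the lowest collagen sum stood above both Matrigel sums. The log2 fold change on day 5 was 2.94 ± 0.62 (SE), a 7.70-fold higher level, with an adjusted p of 0.0414 in edgeR. It ranged from 2.32 to 3.44 with 1 mouse left out. On days 0 and 3 it was -0.01 ± 0.40 and 0.84 ± 0.40, neither called in edgeR (adjusted p = 0.993 and 0.506).

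Over time Itga2 fell in Matrigel, and no change was called in collagen. In Matrigel it averaged 14.8 CPM on day 5, against 72.8 CPM on day 3, a log2 change of -2.32 ± 0.59 (edgeR adjusted p = 0.0412). That call was lost without mouse 1, 2 or 3 (highest adjusted p 0.468), with sums of at least 50 cells (adjusted p = 0.230) and in limma (adjusted p = 0.132). In collagen it averaged 129 ± 52.6 CPM (SD, n = 4) on day 3, against 60.0 ± 15.8 CPM on day 0, a log2 change of 1.11 ± 0.40 that was not called (edgeR adjusted p = 0.0587) and was called with the mouse as a block (log2 change 1.06, adjusted p = 0.00471). The difference between the matrices was 2.95 ± 0.72 larger on the log2 scale on day 5 than on day 0, with an edgeR adjusted p of 0.0503, and with the mouse as a block of 0.00193.

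With all cells, none of the laminin-binding subunits Itga3, Itga6 and Itgb4 was called between the matrices, with or without the mouse as a block. Itga3 was called on day 0 in a blocked fit with fewer cells, given with its values. Itga6 (ENSMUSG00000027111, chromosome 2, 71745616 to 71858416, plus strand), which encodes the alpha6 subunit of laminin receptors and of hemidesmosomes, had 57.6 to 105 CPM in collagen and 72.2 to 116 CPM in Matrigel on day 0. Its day 3 level was 39.6 to 137 CPM in collagen and 39.4 to 153 CPM in Matrigel, with mouse 4 lowest in both. On day 5 it had 81.4, 141 and 87.6 CPM in collagen and 82.8 and 89.6 CPM in Matrigel. Both Matrigel sums lay inside the collagen range, and the log2 fold change of 0.27 had a 95% interval of -0.72 to 1.25.

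Itga3 (ENSMUSG00000001507, chromosome 11, 95044474 to 95076801, minus strand), the alpha3 laminin-binding subunit, had 58.7, 74.8 and 42.0 CPM in collagen and 47.4 and 31.3 CPM in Matrigel on day 5. Its groups overlapped on all days, and its log2 fold changes were 0.05, 0.19 and 0.56 on days 0, 3 and 5, the last with a 95% interval of -0.06 to 1.18. Its values on day 0 moved with a few cells. There 26 collagen cells and 16 Matrigel cells labelled as mouse tumour cells fell into the cluster of the 4T1 line. Itga3 had 168 CPM in the cells labelled as that line on day 0. It had 142 CPM in the mouse-labelled cells of the cluster over all days. With all cells Itga3 had 55.0, 56.4, 39.2 and 78.2 CPM of the total count in mice 1 to 4 in collagen, against 59.0, 56.2, 50.8 and 48.7 CPM in Matrigel. Without those cells it had 37.5, 43.6, 37.8 and 37.3 CPM in collagen, against 57.9, 50.1, 48.2 and 42.8 CPM in Matrigel. The log2 fold change was then -0.42 (edgeR adjusted p = 0.246) and with the mouse as a block -0.44 (adjusted p = 0.0457), and under that block Itga3 was higher in collagen on day 3 than on day 0 by 0.58 (adjusted p = 0.00595). With all cells Itga3 was not called over time in either matrix.

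Itgb4 (ENSMUSG00000020758, chromosome 11, 115974709 to 116008412, plus strand), the hemidesmosomal beta4 subunit, had 47.1, 69.4 and 61.2 CPM in collagen and 56.3 and 38.6 CPM in Matrigel on day 5, with overlapping groups and a log2 fold change of 0.32 (95% interval -0.28 to 0.91). It changed with time. In collagen it averaged 56.5 ± 14.6 CPM on day 3, against 33.3 ± 2.8 CPM on day 0 (SD, n = 4 each), with no overlap. That log2 change of 0.77 ± 0.22 was called in edgeR (adjusted p = 0.0175), and not without mouse 2 or mouse 3 (highest adjusted p 0.117). In Matrigel the change over the same days was 0.55 ± 0.22, not called (edgeR adjusted p = 0.0520) and called with the mouse as a block (adjusted p = 0.0429).

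Of the fibronectin- and RGD-binding subunits, Itga5 and Itgav were called higher in collagen on day 5 and Itgb6 was not. Itga5 (ENSMUSG00000000555, chromosome 15, 103344286 to 103366763, minus strand) pairs with beta1 to form the classical fibronectin receptor. On day 0 its level in mice 1 to 4 was 17.0, 17.4, 29.7 and 21.0 CPM in collagen, against 14.6, 20.3, 8.61 and 24.5 CPM in Matrigel. On day 3 it was 20.7, 16.8, 18.2 and 14.8 CPM in collagen, against 4.67, 14.9, 8.98 and 9.81 CPM in Matrigel. On day 5 it was 20.3, 15.6 and 21.8 CPM in collagen, against 2.15 and 2.41 CPM in Matrigel, where the sums held 7 and 5 UMIs. Collagen sums stayed between 14.8 and 29.7 CPM on all days, Matrigel sums averaged 17.0, 9.59 and 2.28 CPM on days 0, 3 and 5, and the groups overlapped on days 0 and 3 and not on day 5. The log2 fold change on day 5 was 3.08 ± 0.51, an 8.45-fold higher level (edgeR adjusted p = 0.0110), and 3.05 to 3.14 with 1 mouse left out. In Matrigel the log2 change was -0.76 ± 0.30 on day 3 against day 0 (edgeR adjusted p = 0.0482) and -2.14 ± 0.51 on day 5 against day 3 (adjusted p = 0.0330). The first call was lost without mouse 1, 2 or 4 (highest adjusted p 0.291), with a change of -0.48 without mouse 4, and also in limma, with no filter on low counts, without cells of few UMIs or of low epithelial markers, and with sums of at least 10 or 50 cells (adjusted p 0.0520 to 0.140). The second was lost without mouse 2 or 3 (highest adjusted p 0.439), with sums of at least 50 cells (adjusted p = 0.13) and in limma (adjusted p = 0.155). The matrix difference was larger on day 5 than on day 0 by 2.76 ± 0.59 (edgeR adjusted p = 0.0299), a call lost when any 1 mouse was left out (adjusted p 0.0512 to 0.283).

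Itgav (ENSMUSG00000027087, chromosome 2, 83724397 to 83806916, plus strand) encodes the alpha-v subunit. Its replicates lay close together on day 5, at 52.2, 50.8 and 52.6 CPM in collagen, against 24.9 and 23.1 CPM in Matrigel. Its level on day 3 was 41.3, 42.0, 45.1 and 28.4 CPM in collagen, against 33.9, 37.7, 30.2 and 29.6 CPM in Matrigel, and these groups overlapped through mouse 4. On day 0 it had 39.0 to 41.5 CPM in collagen, against 31.1 to 38.9 CPM in Matrigel. The log2 fold change was 1.11 ± 0.18 on day 5, a 2.15-fold higher level (edgeR adjusted p = 0.0110). It was 0.19 ± 0.13 on day 0 and 0.27 ± 0.13 on day 3, neither called. The matrix difference on day 5 exceeded that of day 0 by 0.91 ± 0.22 (edgeR adjusted p = 0.0476), a call lost without mouse 1, 2 or 3 (highest adjusted p 0.422). With the mouse as a block, Itgav was also called on day 5 against day 3, higher in collagen (log2 change 0.34, adjusted p = 0.0417) and lower in Matrigel (-0.50, adjusted p = 0.0310).

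Itgb6 (ENSMUSG00000026971, chromosome 2, 60598292 to 60722643, minus strand), the epithelial partner of alpha-v in a receptor that can activate latent TGF-beta, varied widely among mice. Mouse 4 was highest and mouse 3 lowest in every group of 4. On day 3 mouse 4 had 15.7 CPM in collagen and 18.2 CPM in Matrigel, and mouse 3 had 4.55 CPM in collagen and 3.22 CPM in Matrigel. On day 5 Itgb6 had 3.07, 14.3 and 3.93 CPM in collagen and 3.39 and 2.41 CPM in Matrigel. It was not called in any comparison. On day 5 its log2 fold change of 1.29 had a 95% interval from -0.84 to 3.41, and its Matrigel sums held 11 and 5 UMIs. The SE was 1.02, and 0.57 with the mouse as a block.

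Itgb1 (ENSMUSG00000025809, chromosome 8, 128685654 to 128733200, plus strand) encodes the beta1 subunit shared by the collagen, laminin and fibronectin receptors. On day 5 its level was 464, 453 and 386 CPM in collagen, against 234 and 253 CPM in Matrigel. On day 3 it was 627, 582, 498 and 622 CPM in collagen, against 328, 471, 382 and 674 CPM in Matrigel, and on day 0 410 to 571 CPM in collagen, against 490 to 781 CPM in Matrigel. On day 0 all 4 mice had the lower value in collagen, and on day 5 both mice had the higher value there. The day 5 log2 fold change of 0.84 ± 0.25 was not called (edgeR adjusted p = 0.136), and was called with the mouse as a block (0.80, adjusted p = 0.00978). In Matrigel, Itgb1 fell on day 5 against day 3, with a log2 change of -0.93 ± 0.24 (edgeR adjusted p = 0.0428) that was not called without mouse 1, 2 or 3 (highest adjusted p 0.463). Under the block it also fell in Matrigel on day 3 against day 0 (log2 change -0.37, adjusted p = 0.0153).

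Fermt1 (ENSMUSG00000027356, chromosome 2, 132904389 to 132945906, minus strand) encodes kindlin-1, an epithelial protein that binds the tails of beta subunits and helps to activate integrins. It was the only one of the 10 genes whose sums did not overlap between the matrices on all 3 days, with every collagen value higher, where 7.25%, 2.6% and 18.6% of all genes were higher without overlap on days 0, 3 and 5. On day 0 it had 90.0, 60.5, 80.3 and 68.0 CPM in collagen, against 43.0, 44.3, 54.4 and 58.0 CPM in Matrigel. Day 3 levels were 118, 99.9, 160 and 108 CPM in collagen, against 49.6, 53.9, 66.5 and 57.5 CPM in Matrigel. On day 5 it had 37.2, 60.3 and 47.1 CPM in collagen, against 12.6 and 19.8 CPM in Matrigel. The log2 fold changes were 0.58 ± 0.19 on day 0 (edgeR adjusted p = 0.0635, with the mouse as a block 0.0137), 1.09 ± 0.19 on day 3 (adjusted p = 0.0174) and 1.60 ± 0.27 on day 5 (adjusted p = 0.0139). The call of day 3 was lost without mouse 1, 2 or 3 (highest adjusted p 0.268). It was also lost with the 2 groups fitted alone (edgeR adjusted p = 0.0770) and with sums of at least 50 cells (0.0789). The call of day 5 was lost in the same 2 fits (edgeR adjusted p = 0.093 and 0.115) and in limma (adjusted p = 0.0554).

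Fermt1 was also lower on day 5 than on day 3 in both matrices. In collagen it averaged 48.2 CPM on day 5, against 121 CPM on day 3, a log2 change of -1.33 ± 0.20 (edgeR adjusted p = 0.00167). In Matrigel it averaged 16.2 CPM on day 5, against 56.9 CPM on day 3, a log2 change of -1.84 ± 0.27 (edgeR adjusted p = 0.00114). In collagen it had been higher on day 3 than on day 0, by 0.70 ± 0.19 (edgeR adjusted p = 0.0117). The fall in collagen was not called without mouse 1 or 3 (highest adjusted p 0.0979), the fall in Matrigel not without mouse 2 (adjusted p = 0.131), and the rise in collagen not without mouse 2 or 3 (highest adjusted p 0.0773).

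Sdc1 (ENSMUSG00000020592, chromosome 12, 8771323 to 8793715, plus strand) encodes syndecan-1, a heparan sulphate proteoglycan that binds several matrix proteins beside the integrins. On day 0 it had 341, 389, 508 and 474 CPM in collagen, against 411, 376, 404 and 538 CPM in Matrigel. Levels on day 3 were 467, 414, 565 and 464 CPM in collagen, against 237, 280, 313 and 397 CPM in Matrigel. On day 5 it had 414, 407 and 496 CPM in collagen, against 207 and 219 CPM in Matrigel. The groups overlapped on day 0 and not on days 3 and 5. The log2 fold change was -0.01 ± 0.16 on day 0, 0.64 ± 0.16 on day 3 (edgeR adjusted p = 0.134, with the mouse as a block 0.00331) and 1.04 ± 0.22 on day 5 (adjusted p = 0.0426). In Matrigel it fell on day 3 against day 0 by 0.49 ± 0.16 on the log2 scale (edgeR adjusted p = 0.0236), a call lost without mouse 1, 2 or 3 (highest adjusted p 0.117). The call was also lost with stromal and immune cells kept (edgeR adjusted p = 0.0568), with sums of at least 50 cells (0.101) and in limma (adjusted p = 0.170).

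Counted over time, where 19.4% and 19.7% of all genes were called higher and lower in Matrigel on day 3 against day 0, 0 of the 10 were called higher and 2 lower (Itga5 and Sdc1). With the mouse as a block 1 and 3 were, where 26.7% and 28.1% of all genes were. On day 5 against day 3 in Matrigel, 0 were called higher and 4 lower (Itga2, Itga5, Itgb1 and Fermt1), where 1.46% and 1.05% of all genes were, and the block gave 0 and 6, where it called 5.86% and 6.86% of all genes. In collagen, day 3 against day 0 gave 2 higher (Itgb4 and Fermt1), and 0 lower, where 9.33% and 10.2% of all genes were called. Day 5 against day 3 in collagen gave 1 lower (Fermt1), where 0.47% of all genes were, and 0 higher, where 0.683% were. The matrix difference grew by day 5 relative to day 0 for 2 of the 10 (Itga5 and Itgav), where 0.478% of all genes did so, and for 6 with the mouse as a block, where 6.38% did. By day 3 it had grown for 0 of the 10 in edgeR (0% of all genes), DESeq2 and limma, and for 2 at an unadjusted p under 0.05 (Itgb1 and Sdc1). The same 2 were called with the mouse as a block, where 2.21% of all genes were called higher.

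The balance between ligand classes was read within each sum as the log2 CPM of a gene less that of Itga6, so that scaling cancels. For Itga2 less Itga6 this was -0.61 to -0.43 in collagen and -1.58 to -0.39 in Matrigel on day 0, with overlap. On day 3 it was 0.18 to 0.35 in collagen, against -0.52 to -0.35 in Matrigel. The groups did not overlap, although the separate levels of both genes did, and mouse 4 was lowest for both genes in both matrices. On day 5 it was -0.01 to 0.17 in collagen, against -2.80 and -2.32 in Matrigel. For Itga5 less Itga6 the day 5 values were -3.16 to -1.99 in collagen, against -5.15 and -5.12 in Matrigel. For Itgav less Itga6 they were -1.47 to -0.64 in collagen, against -1.95 and -1.72 in Matrigel, and both of these overlapped on days 0 and 3. Itga6 less Itgb4, the balance of both hemidesmosomal subunits, overlapped on all 3 days. These differences are descriptions and were not tested.

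**Figure D3:**
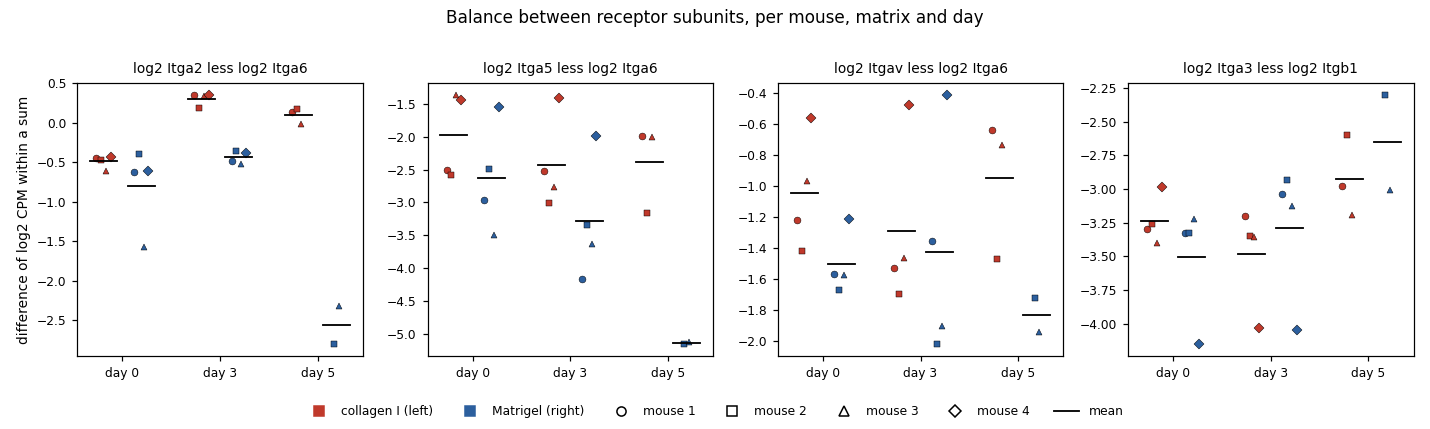
Difference of log2 CPM between 2 subunits within each sum (vertical axis) by day, with collagen to the left of Matrigel; symbols are mice and bars are means. Itga2 less Itga6 separates the matrices on days 3 and 5, Itga5 and Itgav less Itga6 on day 5 alone, and Itga3 less Itgb1 on no day.

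The share of cells with at least 1 UMI was compared at a fixed depth, at which a cell that carries a transcript can show none. Each cell was thinned to 5000 UMIs, which left out 226 of 939, 29 of 2477 and 6 of 1064 collagen cells and 328 of 1701, 38 of 687 and 2 of 102 Matrigel cells on days 0, 3 and 5. Fermt1 was found on day 3 in 30.5%, 30.6%, 35.6% and 41.2% of collagen cells in mice 1 to 4, against 22.2%, 21.1%, 14.6% and 24.2% of Matrigel cells, with no overlap. The exact two-sided permutation test gave p = 0.0286, the smallest it can give with 4 mice each, and 0.428 after adjustment over 30 tests. Itga2 was found on day 5 in 20.8%, 32.7% and 23.6% of collagen cells in mice 1 to 3, against 7.84% and 0% of Matrigel cells in mice 2 and 3. In mouse 3 this was 0 of 37 cells, which allows up to 8.11% of cells with a UMI at this depth, although the whole sum of that mouse held 37 Itga2 UMIs. The exact permutation p of 0.20 is the smallest that 3 against 2 mice can give. Sdc1 was found on day 5 in 82.2%, 76.1% and 76.2% of collagen cells, against 58.8% and 40.5% of Matrigel cells (exact permutation p = 0.20). Unthinned, Itga2 was found on day 5 in 59.7% ± 6.4 of collagen cells (SD, n = 3) and 24.3% ± 4.5 of Matrigel cells (n = 2), and Fermt1 on day 3 in 70.3% ± 5.9 of collagen cells and 59.2% ± 9.0 of Matrigel cells (n = 4 each). Sdc1 was found unthinned on day 5 in 99.0% of collagen cells and 93.4% of Matrigel cells. For Fermt1 on day 5 the thinned Matrigel shares rest on 2 cells in each mouse. Thinned to 2000 UMIs, Fermt1 on day 5 averaged 8.44% in collagen and 7.0% in Matrigel, higher in collagen in 1 of 2 pairs. No share passed adjustment over the 30 tests, and 1 of them (Fermt1 on day 3) had an unadjusted exact permutation p under 0.05.

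Free RNA can give UMIs in cells that do not express a gene. In macrophage-like cells of the same libraries, thinned alike, Itga2 and Fermt1 were found in 0 of 192 cells, which allows up to 1.56% of cells with a UMI at that depth, at a median depth of 15108 UMIs against 34219 in the tumour cells. Unthinned, Itga2 was found in 3.08% of 227 macrophage-like cells and Fermt1 in 0.44%. These cells were pooled over days. Day 0 gave 69 from collagen and 124 from Matrigel, day 3 gave 15 and 16, and day 5 gave 3 and 0. The shares therefore describe mainly the day 0 library and hardly cover that of day 5. In the thinned cells Itga5, Itgav, Sdc1 and Itgb1, which macrophages can express, were found in 22.9%, 17.2%, 17.2% and 62.5% of cells.

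**Figure D4:**
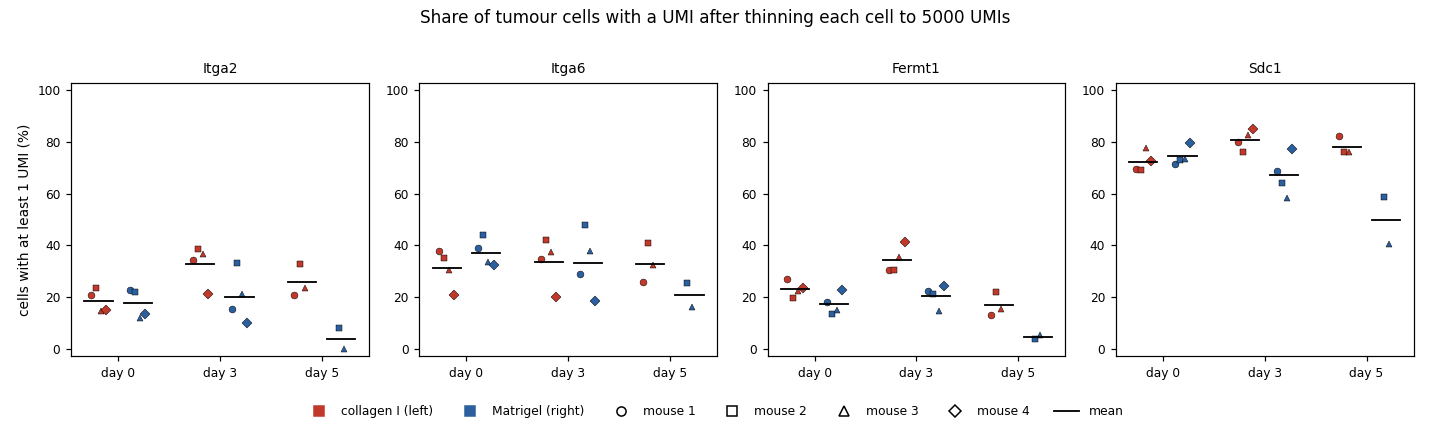
Share of tumour cells with at least 1 UMI of Itga2, Itga6, Fermt1 and Sdc1 (percent, vertical axis) in each mouse by day after thinning to 5000 UMIs, with collagen to the left of Matrigel; bars are means. At this depth Fermt1 does not overlap between the matrices on days 3 and 5 (on day 5 with 2 Matrigel cells in each mouse), Itga2 and Sdc1 do not on day 5, and Itga2 was found in 0 of 37 Matrigel cells of mouse 3 on day 5.

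Fibroblast-like cells carry some of these genes, at 86.6 CPM for Itga5, 61.2 for Itgav, 711 for Itgb1, 206 for Sdc1, 23.0 for Itga2 and 3.43 for Fermt1. They were left out of the sums, but the summed level of the 6 fibroblast markers in the sums was 13.7 to 29.9 CPM in collagen and 4.82 to 5.85 CPM in Matrigel on day 5. On day 3 it was 9.33 to 22.7 CPM in collagen and 2.34 to 5.75 CPM in Matrigel, and on day 0 it was 7.14 to 11.5 CPM in collagen and 3.39 to 16.7 CPM in Matrigel. A cluster of 238 cells with low epithelial markers, whose Itga5 level was 67.3 CPM and Fermt1 level 6.32 CPM, made up 1.70%, 6.22% and 5.17% of collagen cells and 0.35%, 0.87% and 0.98% of Matrigel cells on days 0, 3 and 5. Without that cluster 5 of the 10 genes were still called on day 5, an alternative chosen after seeing the data. That cluster was not among the fibroblast-like cells, and the part of fibroblast RNA in the differences was not tested. When stromal and immune cells were kept, or cells of the 4T1 cluster removed, Sdc1 was no longer called on day 5 (edgeR adjusted p = 0.0537 and 0.0513, and 0.0006 to 0.592 over all alternatives).

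Among a wider list of 74 receptors, adhesion plaque proteins, tetraspanins, proteoglycans and ligands, 67 were tested, and on day 5 the 5 called were the 5 genes above. On day 3 the only call was Fermt1. On day 0, where none of the 10 was called, 3 other genes of the 67 were called higher in collagen and 1 lower, beside 4.15% and 2.88% of all genes. Those higher were the tetraspanin Cd81 (log2 fold change 0.97), the microfibril protein Fbn1 (3.01) and the growth factor Tgfb1 (0.82), whose latent form carries an RGD motif. The proteoglycan Sdc4 was lower (-0.61, edgeR adjusted p = 0.0230). The blocked fit called 12, 17 and 25 of the 67 higher on days 0, 3 and 5, where it called 12.5%, 2.71% and 3.61% of all genes higher. It called 3, 0 and 1 of them lower, where it called 11.8%, 1.66% and 2.67% of all genes lower. The median log2 fold change on days 0, 3 and 5 was 0.52, 0.84 and 0.49 over 5 collagen receptors, 0.04, 0.15 and 0.29 over 6 laminin receptors, and 0.19, 0.27 and 1.11 over 7 fibronectin and RGD receptors. Of the 6 laminin receptors, the blocked fit called 2 higher in collagen on day 0, neither of them among the 10 genes. Without the block, the matrix difference of 3 of the 67 was higher on day 5 than on day 0, and that of 1 was lower. The lower one was a laminin receptor outside the 10. Of all 13184 genes, 63 were called higher and 94 lower there.

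Across the 21 sums, which share mice, days and libraries, the log2 levels of Itga5 and Sdc1 correlated with Pearson's r = 0.86 and those of Itga2 and Itgav with r = 0.78. Itga6 had r = 0.58 with Itga2, -0.18 with Itgb1 and 0.12 with its partner Itgb4. Among 6240 genes of at least 20 CPM, the pattern most like Itga2 was that of Plec (plectin, a linker of hemidesmosomes to the cytoskeleton, r = 0.88), that most like Itgb1 was Msn (moesin, r = 0.92), and that most like Itga5 was Smad7 (r = 0.88). For Fermt1 it was Fxyd5 (r = 0.88), for Itgav Tagln2 (r = 0.86), for Sdc1 Pdlim7 (r = 0.86) and for Itgb4 Frrs1 (r = 0.87). The closest to Itga6 was Ptprz1 (r = 0.85), to Itga3 Slc25a24 (r = 0.76) and to Itgb6 Palld (r = 0.84).

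In the 4T1 line, which gave 1 sum of 98, 196 and 19 cells on days 0, 3 and 5, Sdc1 had 30.7, 24.7 and 48.4 CPM and Itgb6 1.86, 0.73 and 4.13 CPM. Itga3 had 168, 93.8 and 158 CPM there, Itga2 36.5, 27.0 and 31.9 CPM, and Fermt1 47.4, 59.9 and 44.3 CPM. These levels, which are CPM of the total count without TMM scaling, have no replicate. The line was grown on plastic on every day.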

How the data were processed

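Per the labels' protocols, cells were barcoded by condition with MULTI-seq, sorted live and run on 10x Genomics 3' v2 chemistry. Scanpy 1.4.4, Cell Ranger 3.0.2 and the build GRCm38/mm10 are listed without roles, per the submitters' processing notes. The authors deposited raw UMI counts per gene and cell (all 39668312 entries whole) and an annotation with the day, mouse, matrix, total count, number of genes and mitochondrial fraction of each cell. The annotation's time point D1 was matched to day 0 by elimination, as the remaining names match. The other deposited columns, such as cell barcodes and gene names, are labels and hold no measurement, and the number of per-sample value columns without a use was 0. Of 20605 gene identifiers, 20574 matched GENCODE vM21, the source of gene coordinates.

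The genes and lists described were chosen with earlier results of these data known. Cells were clustered in Scanpy 1.11.5 (2000 variable genes, 30 components, 15 neighbours, Leiden resolution 1.0, 24 clusters), and clusters named from marker lists as T and NK-like, fibroblast-like and macrophage-like were removed. No doublet caller was run. Each mouse, matrix and day with at least 20 cells was summed (1831436 to 46657709 UMIs a sum) and tested in edgeR 4.0.16 (TMM, filterByExpr, quasi-likelihood F test, 1 fit of 6 groups, R 4.3.3), with Benjamini-Hochberg adjustment within each of 9 comparisons. The fit was checked on simulated data with no mouse effect. Changes were set there only in collagen on day 3, in genes above 20 CPM. That check does not cover the fewer sums of day 5 or genes at low counts. Per the labels the matrices and days share the same 4 animals, which pairs the sums, so the other design had mouse as a blocking factor. As a check, departures from the group mean had a median correlation of 0.304 within a mouse (lowest 0.072), and for 21 of 21 sums the best match was the same mouse. Between replicates, chi-square over degrees of freedom was 7.5 to 64.4 in 28 pairs, above sampling noise. The genes named are the 10 receptors, every gene of the wider lists called between the matrices, and for likeness the first of the 3 genes with the highest correlation of log2 CPM (prior count 2) to each receptor. DESeq2 1.42.0 and limma 3.58.1 were alternatives. Mouse shares were compared with exact two-sided permutation tests. Intervals and the limit of 3 counts for a count of 0 cover counting error only.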

Additional observations from a re-analysis of the deposited data

Results flagged for a closer look

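In collagen on day 3, mouse 4 lay far below the other 3 mice for Itga2, at 50.5 CPM, and for Itga6, at 39.6 CPM, with gaps of 0.965 and 0.892 of the group's range on the log2 scale, above Dixon's 95% critical value for 4 values. On the CPM scale the ratios were 0.942 and 0.824, and that of Itga6 is then under the critical value. In collagen on day 0, mouse 1 lay above the other 3 for Itgav, at 41.5 CPM (0.913 of the range), although that whole group spans only 39.0 to 41.5 CPM. In all, 40 groups of 4 were examined at the 95% level, where chance flags about 1 group in 20.

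The change of the difference between collagen and Matrigel with time was called for Itga5 and Itgav, with few sums behind it. It was larger on day 5 than on day 0 by 2.76 on the log2 scale for Itga5 (edgeR adjusted p = 0.0299) and by 0.91 for Itgav (adjusted p = 0.0476). The Itga5 call was lost without any 1 mouse, and that of Itgav without mouse 1, 2 or 3. Both were lost with sums of at least 50 cells, in limma and in mice 2 and 3 alone, and that of Itgav also with no filter on low counts or with stromal and immune cells kept (adjusted p 0.0512 to 0.422 over these fits). Day 5 holds 3 collagen and 2 Matrigel sums, and each day is 1 batch, although both matrices of a day share it.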

How the results depend on the processing

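Counts of called genes among the 10 were 0, 1 and 5 for collagen against Matrigel on days 0, 3 and 5, 2 and 1 for collagen on day 3 against day 0 and day 5 against day 3, 2 and 4 for Matrigel over the same steps, and 0 and 2 for the growth of the matrix difference by days 3 and 5. Counts that moved by over 1.5 times follow, and all others stayed within that. With the mouse as a block the counts were 1 and 2 on days 0 and 3, 2 in collagen on day 5 against day 3, 4 in Matrigel on day 3 against day 0, and 2 and 6 for growth by days 3 and 5. The block without cells of few UMIs gave 1, 2, 2, 2 and 6 for the same results other than Matrigel, and without cells of low epithelial markers 1, 2, 2, 4, 2 and 6. The block without mouse-labelled cells of the 4T1 cluster gave 2, 2, 2, 4, 2 and 7, and 4 in collagen on day 3 against day 0. Without those cells and no block, day 0 gave 1. DESeq2 gave 1 and 2 on days 0 and 3 and 5 for growth by day 5, and a minimum of 10 CPM gave 1 on day 0 and 4 for that growth. The groups of day 3 fitted alone gave 0. Sums of at least 50 cells gave 0 on days 3 and 5, 0 and 1 in Matrigel, and 0 for growth by day 5. With no filter on low counts Matrigel on day 3 against day 0 gave 1 and growth by day 5 gave 1. Without cells of few UMIs, and likewise without cells of low epithelial markers, those were 1 and 4. Growth by day 5 was 1 with stromal and immune cells kept, 4 with sums of at least 10 cells, and 0 both with limma and in mice 2 and 3 alone. Those 2 mice gave 3 calls on day 5, and limma gave 1 in Matrigel on day 5 against day 3. Leaving out each mouse in turn gave 0 to 2 on day 3, 0 to 6 on day 5, 0 to 3 and 0 to 1 in collagen, 0 to 3 and 0 to 5 in Matrigel, and 0 to 4 for growth by day 5. The cause of these shifts was not tested. Fits that left out mice or small sums also held fewer sums.

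Of 337 alternative values of the 17 called results, 252 stayed called, 85 were not, and 0 changed sign. Of the 73 results not called, 27 changed sign in some alternative without being called there (82 values), and their main log2 sizes were at most 0.32. Another 96 alternative values of uncalled results were called with the sign kept. Itga3 changed sign and was called under the block without mouse-labelled cells of the 4T1 cluster, at -0.44 on day 0 and 0.58 in collagen on day 3 against day 0. No share of cells passed adjustment under any alternative, 0 with mice paired as a block included, a test that with so few pairs could not have reached 0.05. Alternatives on low epithelial markers, mice 2 and 3 alone, and the block joined with a removal of cells were chosen after seeing the data. Day 5 Matrigel levels rest on 51 and 38 cells, and on 7 and 5 UMIs for Itga5 and 11 and 5 for Itgb6.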

Other observations

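The cell types that were left out of the sums carried their own matrix receptors, pooled over mice with 1 value each. Macrophage-like cells held Itgam and Itgb2, the subunits of the leukocyte receptor Mac-1, at 183 and 165 CPM (95% counting intervals 169 to 198 and 151 to 179), with Itga5 at 47.5 CPM and Itga2 at 2.04 CPM. T and NK-like cells, 29 in number, held Itgb7, a subunit of lymphocyte homing receptors, at 215 CPM (146 to 305). Fibroblast-like cells held Itga5 at 86.6 CPM (74.3 to 100.4) and Itga3 at 3.43 CPM.

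In the tumour sums the 5 leukocyte integrins Itgal, Itgam, Itgax, Itgb2 and Itgb7 summed to 1.61 to 2.39 CPM in collagen and 0.92 to 9.16 CPM in Matrigel on day 5. The 4T1 line held Itgb2 at 13.9, 3.15 and 7.88 CPM on days 0, 3 and 5.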
